A study of Mus musculus with 2 samples.

Results

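Small nucleolar RNAs (snoRNAs) and the noncoding genes that carry them in their introns were described in heart RNA of 2 mice. The set holds every gene whose symbol is Snord or Snora followed by a number, Snhg followed by a number, or Gas5: 157 of 55536 annotated mouse genes. It comprises 99 box C/D genes (Snord), 42 box H/ACA genes (Snora) and 16 host genes (15 Snhg genes and Gas5). The 157 records carry 154 symbols, because Snora43, Snora16a and Snord80 each have a pair of nested records. The symbol decided membership and no measured value did. A further 1367 genes of the snoRNA class with other names served as a background.

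Both animals were adult females aged 8 to 10 months, B6CASTF1/J mice, the F1 hybrid of a C57BL/6J and a CAST/EiJ parent. They were untreated and form a single group, so the design holds no contrast and no p-value is given. Replicate 1 is animal 1 and replicate 2 is animal 3. Total RNA, depleted of ribosomal RNA, was sequenced, and each library came with 3 tables: gene and transcript tables derived from alignments, and a second transcript table derived from the FASTQ reads. Values are from the alignment-derived gene table unless the FASTQ-derived table is named, and are mean ± SD over n = 2 animals where no animal is named. The labels give the libraries different animal and biological replicate numbers but the same donor identifier, so that they come from separate animals rests on the animal numbers. Levels are in TPM, the usual unit of transcripts scaled to a fixed sum per library. This unit divides counts by the effective length, which is defined below.

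Depth was 42223411 expected counts in replicate 1 and 40553237 in replicate 2, and a count of 0 allows up to 0.0711 and 0.0740 counts per 1000000, by counting error only. All 6 heart muscle markers (Myh6, Myl2, Actc1, Tnni3, Tnnt2 and Nppa) were expressed, with TPM above 1 in each heart and a median of 4360 ± 651. None of 5 neuron markers, 3 liver markers and 3 markers of dividing cells did.

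Box C/D snoRNAs pair with ribosomal RNA and guide 2′-O-methylation by fibrillarin, and box H/ACA snoRNAs guide pseudouridylation by dyskerin; a few of both kinds act in cleavage of the ribosomal RNA precursor instead. In mammals most lie in introns and are cut and trimmed from the spliced intron. Their hosts are mainly genes of ribosomal proteins and translation factors, or Snhg genes (snoRNA host genes) and Gas5, whose spliced RNAs carry no long reading frame and are turned over by nonsense-mediated decay.

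The letters of these RNAs and their length come first, because length decides which of them the tables could measure. Among the box C/D genes, 4 had counts enough to describe. Snord15b (chr7:99479563-99479707) and Snord15a (chr7:99482785-99482932) are the U15 snoRNAs, on the minus strand in introns of Rps3, a gene of a small-subunit ribosomal protein. Snord17 (chr2:144265979-144266216, minus strand) lies in Snx5, a sorting nexin gene. Snord22 (chr19:8725866-8725991, plus strand), the U22 snoRNA, needed for maturation of 18S ribosomal RNA, lies in Snhg1. Capitals mark TGATGA in the first 20 bases (the C box) and CTGA in the last 20 bases (the D box), 5′ to 3′, from GENCODE M21 transcripts on mm10. Snord22 has no TGATGA in that window.
Snord15b: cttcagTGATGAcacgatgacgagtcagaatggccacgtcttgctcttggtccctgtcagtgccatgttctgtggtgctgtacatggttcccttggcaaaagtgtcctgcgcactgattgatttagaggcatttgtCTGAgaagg
Snord15a: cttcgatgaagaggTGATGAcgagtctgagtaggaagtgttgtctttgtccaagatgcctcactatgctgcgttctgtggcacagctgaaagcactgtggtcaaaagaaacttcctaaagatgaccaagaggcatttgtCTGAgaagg
Snord17: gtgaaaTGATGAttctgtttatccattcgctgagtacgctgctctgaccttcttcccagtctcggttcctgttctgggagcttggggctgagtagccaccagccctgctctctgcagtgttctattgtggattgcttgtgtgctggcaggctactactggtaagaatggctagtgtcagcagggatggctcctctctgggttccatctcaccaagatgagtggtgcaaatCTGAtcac
Snord22: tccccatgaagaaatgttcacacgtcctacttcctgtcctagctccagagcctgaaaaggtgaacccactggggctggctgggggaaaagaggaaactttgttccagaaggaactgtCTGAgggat

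These 4 RNAs measure 145, 148, 238 and 126 bases, against a median of 84 bases over the 99 box C/D genes. Snord15a and Snord15b matched at 65.6% of 154 alignment columns. More usual in size are the snoRNAs of Gas5 on chromosome 1 and the Snord116 copies of Snhg14 on chromosome 7. The Gas5 examples are Snord47 (chr1:161038082-161038158), Snord78 (chr1:161036984-161037049) and Snord80 (chr1:161037601-161037681), all on the plus strand. Capitals are as above; Snord78 has no TGATGA in the window.
Snord47: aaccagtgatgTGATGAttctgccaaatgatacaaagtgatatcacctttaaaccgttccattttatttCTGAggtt
Snord78: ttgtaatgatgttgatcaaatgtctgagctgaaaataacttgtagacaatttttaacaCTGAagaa
Snord80: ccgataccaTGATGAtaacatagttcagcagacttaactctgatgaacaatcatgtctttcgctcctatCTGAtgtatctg
Snord116l1: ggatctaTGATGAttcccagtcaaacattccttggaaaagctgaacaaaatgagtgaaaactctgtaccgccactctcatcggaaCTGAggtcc

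Of the 17 Snord116 genes, 14 have exactly the sequence shown for Snord116l1, and there are 4 distinct sequences in all, with pairwise identity from 94.7% to 100%. A read inside one of those 14 fits all of them. Over the 99 box C/D genes, 70 (70.7%) held TGATGA in the first 20 bases, 97 held CTGA in the last 20, and 68 (68.7%) held both. Of 6897 other transcripts of 60 to 250 bases, 0.594% held the first, 8.99% the second and 0.101% both. A match describes letters only.

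The box H/ACA genes are longer, 121 to 205 bases with a median of 132.5. The longest are Snora73b (chr4:132352322-132352526) and Snora73a (chr4:132352775-132352979), the U17 snoRNAs that act in cleavage of the ribosomal RNA precursor, on the minus strand in introns of Snhg3, a stretch also annotated within Rcc1. Capitals in this pair mark the 7 positions, of 205, at which they differ, an identity of 96.6%. The last 3 bases are among them. They are shown because this likeness decides how their counts can be read.
Snora73b: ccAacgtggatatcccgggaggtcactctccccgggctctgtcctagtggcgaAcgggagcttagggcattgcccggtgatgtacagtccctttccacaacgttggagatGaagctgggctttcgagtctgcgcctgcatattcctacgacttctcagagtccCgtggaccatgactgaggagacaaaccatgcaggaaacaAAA
Snora73a: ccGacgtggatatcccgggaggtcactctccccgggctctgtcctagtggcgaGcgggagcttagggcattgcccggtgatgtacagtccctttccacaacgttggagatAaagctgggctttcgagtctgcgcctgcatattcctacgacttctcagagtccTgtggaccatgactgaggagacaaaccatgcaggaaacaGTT

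In the next pair, guides of pseudouridylation in introns of protein-coding genes, capitals mark ACA near the 3′ end, the element that gives the class its name. Snora23 (chr7:110046364-110046547, plus strand) lies in Ipo7, an importin gene, and Snora21 (chr11:97781639-97781775, minus strand) in Rpl23, a ribosomal protein gene. An ACA within the last 10 bases was present in 40 of 42 box H/ACA genes (95.2%), in 8 of 99 box C/D genes (8.08%) and in 14.2% of the 6897 other short transcripts.
Snora23: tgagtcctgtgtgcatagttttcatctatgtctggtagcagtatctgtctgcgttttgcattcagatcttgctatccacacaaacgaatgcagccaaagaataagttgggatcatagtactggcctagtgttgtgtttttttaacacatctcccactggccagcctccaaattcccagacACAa
Snora21: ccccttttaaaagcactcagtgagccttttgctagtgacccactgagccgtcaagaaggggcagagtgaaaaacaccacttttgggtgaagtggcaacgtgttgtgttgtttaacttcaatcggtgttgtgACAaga

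Length set the reach of the gene tables. The deposited effective length, the number of positions at which a fragment can start and by which counts are divided, was the gene length less 100 bases for every gene with 1 transcript over 100 bases long. It was 0 for 87 of the 99 box C/D genes, which measure 64 to 99 bases, and all 87 had no count in either animal. An effective length of 0 was listed for 4.42% of all mouse genes and for 27.2% of the snoRNA genes outside the set. In the FASTQ-derived table the same 87 genes had effective lengths of 28.4 to 40.6 bases and again no count. A 0 of these genes therefore gives no measure of the RNA, and they include every snoRNA of Gas5, Snhg5 (Snord50a and Snord50b), Snhg6 (Snord87), Snhg18 (Snord123) and all 17 Snord116 genes.

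**Figure D1:**
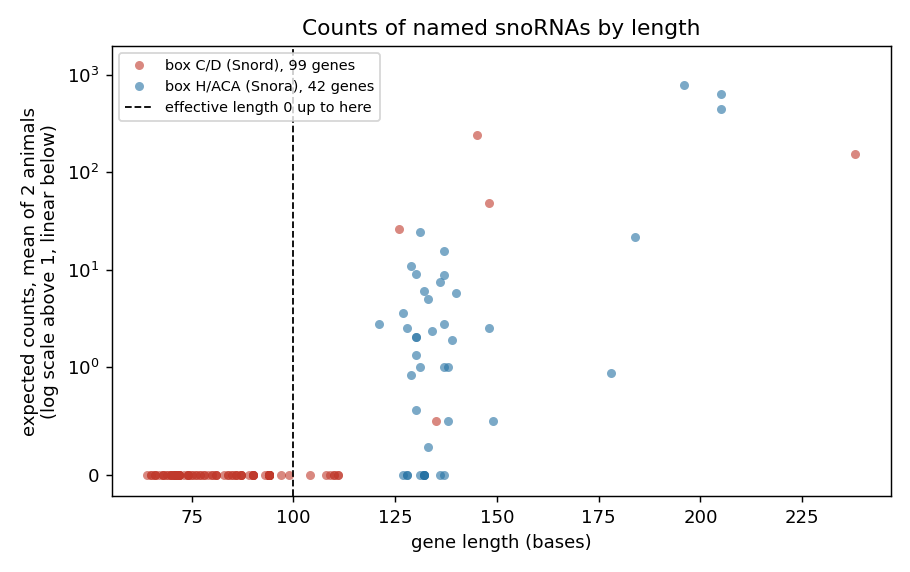
Mean expected counts over both animals (vertical axis, logarithmic above 1 and linear below) against gene length in bases (horizontal axis) for 99 box C/D (red) and 42 box H/ACA genes (blue). All 87 box C/D genes to the left of the dashed line at 100 bases lie at 0, and the highest points belong to RNAs of 196 and 205 bases.

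The other 12 box C/D genes measure 104 to 238 bases, and their effective lengths run from 4 to 138 bases with a median of 11. Of these, 5 had any count, 4 had 10 counts or more in both animals and 7 had none. Among the 7 is Snord13 (U13), at 104 bases with an effective length of 4. The fifth, Snord118, is the U8 snoRNA, needed for maturation of 28S and 5.8S ribosomal RNA. It had 1 count in replicate 1 and 0 in replicate 2.

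The 42 box H/ACA genes had effective lengths of 21 to 105 bases, with a median of 32.5. A single read then weighs much: Snora65, with 1.20 counts in replicate 1, stood at 1.19 TPM. Counts were found in either animal for 32 genes and in both for 23. The 10 without a count were Snora3, Snora19, Snora20, Snora28, Snora35, Snora36b, Snora41, Snora69 and both records of Snora16a. Snora35 lies in Htr2c, a serotonin receptor gene known from brain, which had 0 and 0.04 TPM. Others of the 10 lie in expressed hosts, such as Snora41 in Eef1b2 (129 ± 8.56 TPM) and Snora36b in Rab3gap2 (7.22 ± 0.61 TPM). Why these genes had no count was not tested.

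At 1 TPM or more in both animals stood 4 of 99 box C/D genes (4.04%), 18 of 42 box H/ACA genes (42.9%) and 10 of 16 hosts (62.5%), against 20.9% of all mouse genes and 2.78% of the 1367 other snoRNA genes. Only genes with a usable effective length can reach the threshold: 33.3% of the 12 such box C/D genes did, and 21.8% of all such mouse genes. Of the 18 box H/ACA genes, 13 rested on fewer than 10 counts in an animal, and 5 had 10 counts or more in both. In the FASTQ-derived table the numbers were 0 box C/D, 0 box H/ACA and 11 host genes.

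The highest snoRNA was Snora74a, the U19 box H/ACA RNA (chr18:35557032-35557227, plus strand), with 249.94 TPM in replicate 1 and 240.52 TPM in replicate 2 from 807.30 and 782.70 counts. It lies in the noncoding gene AC121821.1. Snora73b followed with 177.36 and 185.85 TPM (626.58 and 661.50 counts). Snora73a stood at 112.52 and 143.24 TPM (397.50 and 509.85 counts). The order of these 3 was the same in both animals, with a wide gap to the next box H/ACA RNA.

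Snora73a and Snora73b share most of their letters, so the fractional counts of each depend on how shared reads were divided. Of the 175 stretches of 31 bases in each, 26 of Snora73a and 96 of Snora73b occur in no other gene's annotated transcript. Gm26448, a snoRNA gene outside the set that shares 10 such stretches with Snora73a, had 143 and 165 counts. Summed, the U17 pair had 1024.08 counts in replicate 1 and 1171.35 in replicate 2, a value that does not depend on the division between the 2 genes. It does depend on the division between the pair and the host. Transcripts of Snhg3 hold 129 of the 175 stretches of Snora73a and 56 of those of Snora73b.

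Among the box C/D RNAs Snord15b led, with 179.49 TPM in replicate 1 and 140.81 TPM in replicate 2 (271.76 and 214.80 counts). Snord15a, from another intron of Rps3, had 31.58 and 27.66 TPM (51 and 45 counts). Snord17 had 33.81 and 32.07 TPM (157 and 150 counts), and Snord22 had 21.55 and 38.40 TPM (18.85 and 33.85 counts). Snord15b lay above the other 3 in both animals, whereas the ranges of Snord22 over the animals covered those of Snord15a and Snord17, so its place among them is not fixed.

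The remaining box H/ACA genes were far lower. Snora68 had 22.60 and 23.57 TPM and Snora21 had 17.67 and 7.18 TPM, on 22 and 9 counts. Snora44 and Snora61, both in Snhg12, had 9.13 and 12.96 TPM and 14.46 and 3.43 TPM. Snora23 had 6.72 and 8.43 TPM, Snora52 (in Rplp2) 8.11 and 5.82 TPM, and Snora5c (in Tbrg4) 6.97 and 5.24 TPM. The ranges of neighbours in this group overlap, apart from Snora68, which lay above the others in both animals. Together the snoRNAs held 0.0926% ± 0.0021 of TPM but 0.00606% of expected counts, and the 4 highest carried 84.5% of the snoRNA counts in replicate 1 and 85.8% in replicate 2.

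**Figure D2:**
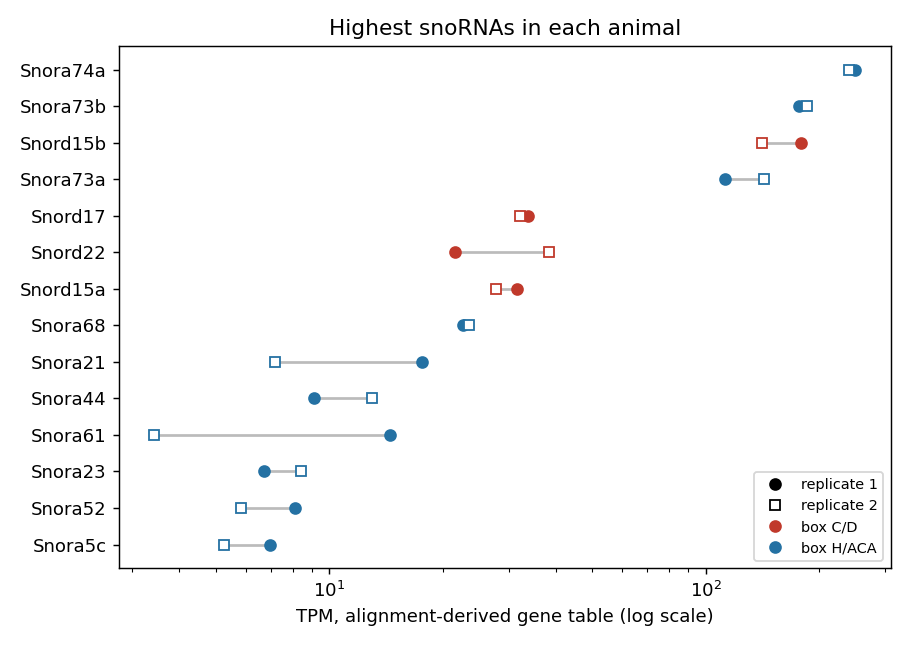
TPM (horizontal axis, log scale) of the 10 highest box H/ACA (blue) and the 4 expressed box C/D RNAs (red) in replicate 1 (filled circles) and replicate 2 (open squares), joined by a line. Snora74a, Snora73b, Snord15b and Snora73a stand above 100 TPM in both animals, and the distance between the animals widens among the lower genes.

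The hosts were low. Gas5 (chr1:161034422-161038539), a gene first known from growth-arrested cells, was the highest, at 19.95 TPM in replicate 1 and 20.03 TPM in replicate 2 on 353 and 363 counts. Next came Snhg8 with 5.50 and 4.62 TPM, Snhg3 with 6.24 and 3.75 TPM, Snhg20 with 4.21 and 3.46 TPM and Snhg1 with 3.65 and 3.99 TPM. The levels of Snhg3, Snhg8, Snhg20, Snhg1 and of Snhg6 (2.79 and 4.05 TPM) overlap from gene to neighbouring gene, whereas Gas5 stands clear of the spread.

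Snhg12 had 2.49 and 2.89 TPM, Snhg5 1.87 and 2.09 TPM, Snhg14 1.44 and 1.94 TPM and Snhg18 1.37 and 1.55 TPM. Snhg15, at 1.20 and 0.76 TPM, lay on both sides of the threshold, and Snhg17 lay below it with 0.85 and 0.57 TPM. Snhg9, Snhg10 and Snhg11 had 1 to 8 counts in each animal. Snhg7os, an antisense gene that the naming rule also takes in, had no count. The median host stood at 1.84 ± 0.25 TPM, and the 16 hosts together held 0.00514% ± 0.00012 of TPM.

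Snhg14, the long host gene of the Snord116 cluster in the imprinted region whose human counterpart is lost in Prader-Willi syndrome, known mainly from neurons, had 114 counts in each animal. Beside it, the neuron markers Snap25, Syt1, Rbfox3, Gap43 and Tubb3 had a median of 0.135 ± 0.007 TPM, and each had 14 counts or fewer per animal. Whether neurons contribute to the Snhg14 counts was not tested. Its Snord116 copies lie a median of 161622 bases from the next annotated exon of Snhg14 (16 copies with such an exon, lowest 1604 and highest 180591). The median was 85 bases (quartiles 71.5 and 197.5) for 79 other box C/D genes and 165 bases (quartiles 76.5 and 309) for 38 box H/ACA genes. A distance of 50 to 100 bases to the next exon was found for 62.0% of those 79 and 34.2% of the 38.

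In the FASTQ-derived table the hosts kept their place as low genes with Gas5 on top, at 30.1 and 25.7 TPM. Of the 11 hosts compared between the tables, Snhg20 differed by 2-fold or more in both animals: it had 13.1 and 12.6 TPM there, on 146 and 130 estimated counts against 80.69 and 62.39. Among all genes compared, 2.36% were higher in the FASTQ-derived table by that rule. Snhg1 was next, at 6.08 and 8.82 TPM.

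**Figure D3:**
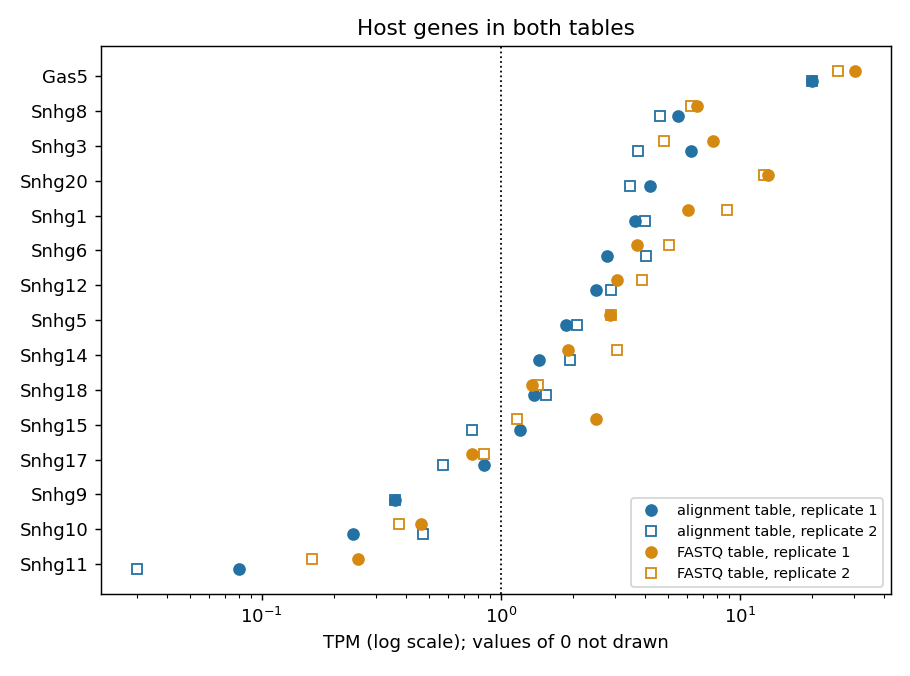
TPM (horizontal axis, log scale) of the 15 host genes with a count, in the alignment-derived table (blue) and the FASTQ-derived table (orange), replicate 1 as filled circles and replicate 2 as open squares; the dotted line is 1 TPM. Gas5 is highest in both tables, and the gap between the tables is widest for Snhg20 among the expressed hosts.

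The isoform that led a host differed between the tables for 5 of the 10 expressed hosts. It also differed between the animals within a table: the same isoform led in both animals for 11 of 15 hosts by alignment and for 7 of 14 from the FASTQ reads. Snhg18 and Snhg9 have 1 annotated isoform each, so their agreement in these counts is fixed. Agreement was close for Snhg8, whose isoform Snhg8-201 took 96.5% of the gene by alignment and 97.2% ± 1.39 from the FASTQ reads, and for Snhg6-203 with 72.2% ± 0.82 and 66.0% ± 10.6. Gas5 was spread over 25 isoforms. Gas5-210 took 36.5% ± 0.05 and 35.9% ± 17.9, and isoforms annotated as retained introns took 26.6% ± 2.19 and 32.6% ± 26.3. For Snhg1 the tables parted: Snhg1-211 led with 81.3% ± 2.31 by alignment, and from the FASTQ reads the retained-intron isoform Snhg1-213, which runs across Snord22, had the highest mean, 41.6% ± 5.02, without leading in both animals. With 39 to 363 counts for each of these genes in an animal, isoform shares rest on few reads.

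Several annotated host transcripts begin with a run of pyrimidines, the feature of 5′TOP transcripts, the class of translation-related mRNAs to which Gas5 is known to belong. An annotated transcript that starts with C followed by 4 bases that are each C or T was found in 7 of the 16 hosts, namely Gas5, Snhg3, Snhg5, Snhg6, Snhg8, Snhg12 and Snhg14. Such a start was found in 4.72% of 22506 other genes with noncoding transcripts and in 12.0% of the 4031 of them that have 4 or more. By transcript it was 14 of 119 (11.8%) against 2.23% of 51234. Starts were not checked against the reads, and a transcript with the motif need not lead its gene. Snhg12-208 had 0 and 17.1 counts by alignment and 0 and 0 from the FASTQ reads. The first 30 bases of 4 annotated transcripts with the motif, from GENCODE M21, show the run in capitals.
Gas5-203: CCCCTCagcctgtactcctcagggaggcgg
Snhg12-208: CCTTTCTCgcttcatccgcggtccctgtct
Snhg6-203: CTTTCTCggcagcgccgtagagcgcgagca
Snhg8-201: CCCTCgcgcgcaggctcttgggagagcgtc

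By position, 36 of the 141 snoRNA genes lie within a Snhg gene or Gas5 on the same strand (27 box C/D and 9 box H/ACA), 83 within a protein-coding gene, 15 within another noncoding gene and 7 within none. Snhg14 holds 17, Snhg12 5 and Gas5 4. The 83 share 61 protein-coding hosts. To set a snoRNA against its host, both had to have at least 10 counts in both animals, which left 9 pairs in all and 3 in Snhg genes; 26 of the 36 snoRNAs in Snhg genes or Gas5 have an effective length of 0.

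In all 3 Snhg pairs the snoRNA stood above its host per length. The log2 ratio of TPM was 5.23 ± 0.57 for Snora73b over Snhg3, 4.71 ± 0.76 for Snora73a over Snhg3 and 2.91 ± 0.50 for Snord22 over Snhg1. Snora73a and Snora73b share their host and part of their reads and are not separate observations. Without any division by length the order held for the U17 pair, with 8.25 and 14.5 times as many counts on Snora73b as on Snhg3 and 5.24 and 11.2 times as many on Snora73a. It turned for Snord22, with 0.238 and 0.393 times the counts of Snhg1, so the TPM ratio of that pair rests on the division by length, here an effective length of 26 bases.

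In Snhg3 the host had 75.92 counts in replicate 1 and 45.65 in replicate 2, and the U17 pair went the other way, from 1024.08 to 1171.35. Host and pair share stretches, so these counts and their ratios depend on how shared reads were divided between them. Snora74a stood further above its host than any other of the 9 pairs, at 6.83 ± 0.48 over AC121821.1. All 166 stretches of Snora74a also occur in AC121821.1, so this ratio too depends on how shared reads were divided. AC121821.1 had 98.06 and 64.88 counts by alignment, and 1025 and 951 estimated counts from the FASTQ reads. The same dependence holds for Snord22, whose 96 stretches all occur in Snhg1, and for Snord15b, whose 115 all occur in Rps3.

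In protein-coding hosts 2 of 5 snoRNAs stood above the host in TPM in both animals and 3 below. Snord17 stood at 0.63 ± 0.12 against Snx5 and Snord15b at 0.39 ± 0.25 against Rps3 on the log2 scale. Neither kept that side when counts were divided by full length, a setting chosen per pair after seeing the data: Snord17 then stood at -0.092 ± 0.114 and Snord15b at -1.20 ± 0.24. By that measure none of the 5 lay above its host, whereas Snora73b, Snora73a and Snord22 still did, at 4.62 ± 0.57, 4.10 ± 0.77 and 0.85 ± 0.50. Snord15a stood at -2.04 ± 0.13 against Rps3. Snora23 stood at -2.09 ± 0.42 against Ipo7. The median of all 9 pairs was 0.63 ± 0.12. Pairs enter only where the snoRNA was counted, so these medians do not describe the 134 snoRNAs that have a host.

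**Figure D4:**
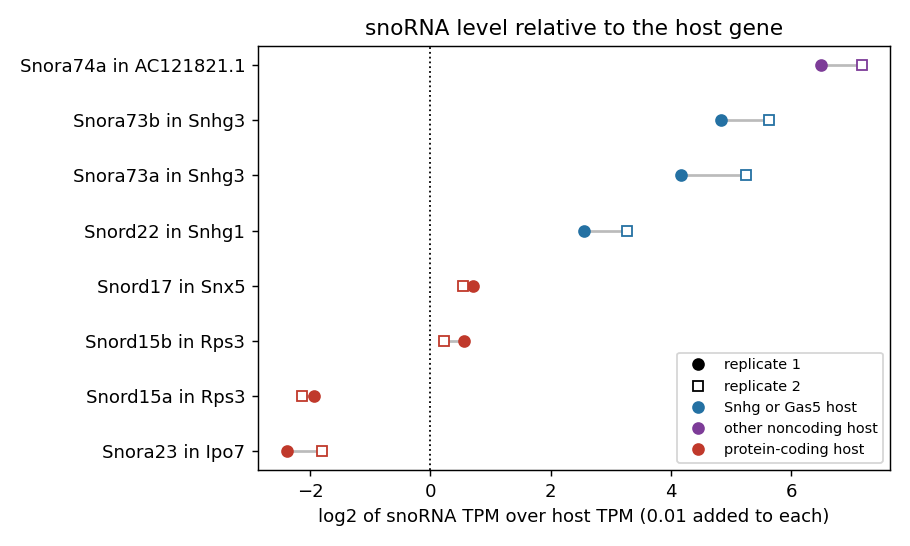
Log2 of snoRNA TPM over host TPM (horizontal axis, 0.01 added to each) for 8 of the 9 pairs with 10 counts or more on both genes in both animals, replicate 1 as filled circles and replicate 2 as open squares, coloured by host class. The 3 snoRNAs in Snhg genes and Snora74a lie right of 0, and the 4 drawn in protein-coding hosts fall on both sides on this TPM scale.

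The tables disagreed on nearly every counted snoRNA. Of 38 members at a mean of 1 TPM or more in either table, 25 were 2-fold or more apart in the same direction in both animals. These were 20 box H/ACA and 4 box C/D genes, all lower in the FASTQ-derived table, and Snhg20. Among all 12374 genes compared, 2.85% were lower there. The FASTQ-derived table listed all snoRNAs of the set at 0, apart from Snord17 with 3 estimated counts in replicate 1. Widest apart were Snora74a, Snora73b, Snord15b, Snora73a, Snord15a, Snord22, Snora68, Snora21, Snora44 and Snord17.

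For 21 counted snoRNAs a host transcript has an exon over at least part of the snoRNA, and Snhg12-204 enters for both Snora44 and Snora61. Summed per snoRNA, these transcripts had more counts in the FASTQ-derived table in both animals for 15, fewer in both for 4 and neither for 2. The 4 were those over Snora52, Snora5c, Snora2b and Snora75. The share over all other transcripts was not computed, so these numbers have no background to be set against. Some gains were far larger than the counts on the snoRNA. Rpl32-202 went from 19.81 and 14.43 counts to 1221 and 1102, beside 3.17 and 8.32 on Snora7a. Cct6a-201, which overlaps Snora15 by 13 bases, went from 31.28 and 73.43 to 1022 and 830, beside 1 and 1 on Snora15. AC121821.1-204, a retained-intron transcript of 708 bases that covers all 196 bases of Snora74a, had 6.38 and 2.62 counts by alignment and 900 and 863 estimated counts from the FASTQ reads, beside 807.30 and 782.70 counts by alignment on Snora74a itself. Rps3-204, which covers Snord15b, went from 21.58 and 18.55 counts to 454 and 358, beside 271.76 and 214.80 on Snord15b. Snhg1-213 went from 0 and 0 counts to 22.8 and 38.3, beside 18.85 and 33.85 on Snord22. Every stretch of 31 bases in Snora74a, Snord15b and Snord22 also occurs in a transcript of the host.

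No such gain in both animals was found for the U17 pair, Snord15a or Snord17. Snhg3 as a whole had 60 and 46 estimated counts in the FASTQ-derived table, against more than 1000 on the pair in the other. Snord15a and Snord17 have no host exon over them and share no stretch with another gene, and their 51 and 45 and 157 and 150 counts stood against 0 and 0 and 3 and 0. Of the 37 counted snoRNAs, 19 share every stretch of 31 bases with another gene's transcript and 7 share none. Counts were whole numbers (within 0.005) in both animals for 13 of the 16 counted snoRNAs with no host exon over them and for 2 of the 21 with one.

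Short genes outside the set were listed at 0 as well. Among genes outside it with 1 transcript and at least 20 counts over both animals, 29 of 29 of 101 to 150 bases were listed at 0 in the FASTQ-derived table, 36 of 37 of 151 to 200 bases and 19 of 28 of 201 to 250 bases. The number fell to 30 of 80 at 301 to 400 bases and 13 of 330 at 601 to 1000 bases. The reason was not tested.

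**Figure D5:**
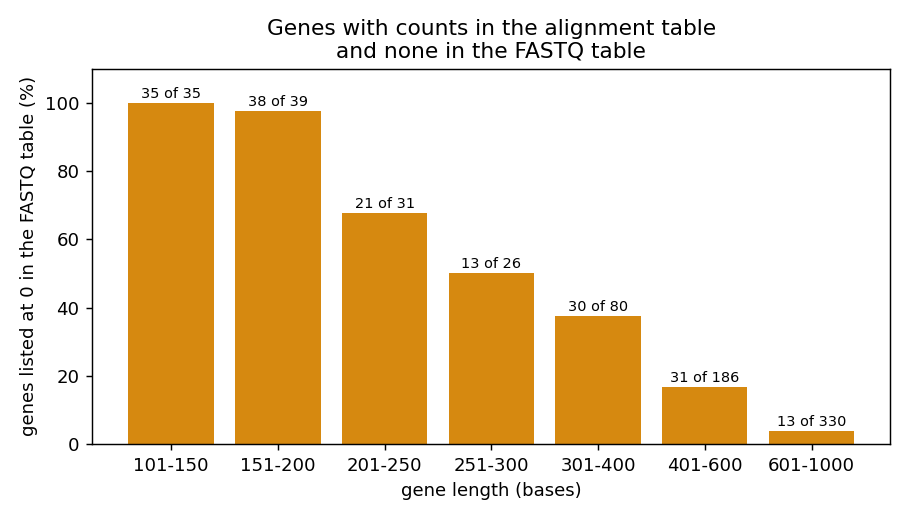
Percent of genes listed at 0 in the FASTQ-derived table (vertical axis) by gene length in bases (horizontal axis), over genes with 1 transcript and at least 20 expected counts in the alignment-derived table, members of the set included; the numbers of genes stand above the bars. The share falls from 100% at 101 to 150 bases to 3.94% at 601 to 1000 bases.

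Between the animals, 21 members had a mean of 1 TPM and 20 counts over both libraries: 7 box H/ACA genes, 4 box C/D genes and 10 hosts. After centring on the median of all compared genes, which lay at -0.18 (log2), 2 of 21 were 2-fold or more apart, against 1.41% of all 11876 genes compared. Snord22 was higher in replicate 2, by 1.01 on the log2 scale, and Snora21 lower, at -1.10. By direction, the background was 0.707% higher and 0.707% lower.

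Both calls rest on few reads. The log2 ratio of the rounded counts of Snord22, centred likewise, was 1.02, with an exact 95% interval for counting error of 0.17 to 1.91. That of Snora21 was -1.11, with an interval of -2.41 to 0.06. With no centring Snord22 stood at 0.83 and only Snora21 was called. With 1 library per animal these differences have no replicate check, and in bulk tissue fewer cells of a type and less RNA per cell cannot be told apart.

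Over the 21 members, 17 counting intervals held 0. Those of Snora73b, Snora73a, Snord22 and Gas5 did not, all higher in replicate 2. That set and its direction depend on the centring: uncentred, the intervals of Snora73a, Snora21, Snord15b and Snhg3 left out 0, and of these Snora73a alone was higher in replicate 2. The deposited credibility intervals of the animals were apart for Snora73a alone, where 28% of all compared genes had such intervals. Within 1.5-fold lay 16 of the 21 (76.2%), against 94.2% of all compared genes. None of the 10 hosts was 2-fold apart; they ran from Snhg3 at -0.54 to Snhg6 at 0.71, and Gas5 stood at 0.19.

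The genes of the proteins that carry these RNAs were all measured, at the level of RNA and not of protein. For box C/D particles, fibrillarin (Fbl), the methyltransferase, had 11.45 and 12.41 TPM, Nop56 9.36 and 8.88, Nop58 13.00 and 8.73, and Snu13 20.39 and 19.32 TPM. For box H/ACA particles, dyskerin (Dkc1), the pseudouridine synthase, had 7.08 and 6.21 TPM, Gar1 8.34 and 7.15, Nhp2 7.54 and 7.21, and Nop10 24.01 and 22.07 TPM. All 8 exceeded 1 TPM in both animals and none was 2-fold apart between them.

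Of the genes of the wider lists that could be compared (a mean of 1 TPM and 20 counts over both libraries), none was 2-fold apart between the animals either. The share over all genes compared was 1.41%. Of the 12 related guide and catalytic RNAs described last, 6 were compared. Of 12 assembly factors 11 were expressed, with a median of 4.71 ± 0.68 TPM; Nufip1 had 1.31 and 0.91 TPM. All 12 processing and trimming genes were expressed (5.41 ± 0.62 TPM), among them the debranching enzyme Dbr1 with 1.93 and 2.98 TPM and the nuclease Exosc10 with 14.02 and 12.49. So were all 8 genes of the Cajal body and the U3 particle (6.51 ± 0.97 TPM) and all 11 genes of nonsense-mediated decay, the pathway that degrades Gas5 RNA (6.74 ± 0.50 TPM), with Upf1 at 17.95 and 15.90 TPM. The share of all mouse genes expressed by that rule is the 20.9% given above.

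The 61 protein-coding genes that hold a snoRNA of the set had a median of 48.6 ± 1.92 TPM, and 59 of them were expressed. The 16 Snhg and Gas5 hosts, with a median of 1.84 TPM, were taken by name, and 11 of them hold a snoRNA of the set. A hand-picked list of 28 known protein-coding snoRNA hosts, of which 18 hold a member of the set, was all expressed, with a median of 118 ± 1.81 TPM. It was led by Hspa8, a chaperone that holds 3 snoRNAs of the set, with 694 and 424 TPM, and Eef2, an elongation factor, with 455 and 391 TPM. None of the 28 was 2-fold apart between the animals, and Hspa8 stood at -0.53 after centring.

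Of 12 related guide and catalytic RNAs, 6 were expressed. Scarna10 and Scarna2, guide RNAs of the Cajal body, had 358 and 326 TPM and 247 and 273 TPM on 2490 to 2908 counts. Scarna13 had 58.25 and 47.03 TPM and Scarna6 38.37 and 35.58. Rpph1 and Rmrp, the RNAs of RNase P and RNase MRP, had 2829 ± 54.9 and 839 ± 55.6 TPM. Terc, the telomerase RNA, which carries a box H/ACA domain, had 0.55 and 0.64 TPM on 6 and 7 counts. Scarna3a, Scarna3b and Scarna8, with effective lengths of 40, 39 and 31 bases, had 0 to 3 counts in an animal, and Scarna9 and Scarna17 have an effective length of 0 and no count. Scarna10 had 225 usable positions, against 4 to 138 for the box C/D genes that had any.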

How the data were processed

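Total RNA of 2 hearts (300 ng each, per the labels) was sequenced. The deposited gene and transcript tables derived from alignments hold expected counts, TPM and the isoform percent, per the file headers; the FASTQ-derived transcript table holds estimated counts and TPM. Posterior TPM bounds are the authors' values, whose level is not stated, with aligner and quantifiers not given in the sources used here. Reads were assigned to mm10 with GENCODE M21, so CAST/EiJ alleles may be assigned less well.

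Members were found by symbol, and positions, hosts and sequences were taken from GENCODE M21. Transcript TPM of the FASTQ-derived table was summed to genes. Expressed means at least 1 TPM in each animal. Between animals, log2 ratios of TPM + 0.1 were used over genes with a mean of 1 TPM and 20 counts. Pseudocounts understate differences of low genes. The same pseudocount served between the tables. Guest over host used TPM + 0.01; 1 of the 9 pairs is counted but not reported here by name. All members and lists were chosen with earlier results of these data known. Named genes are all hosts, the highest snoRNAs, those 2-fold apart, the widest apart between the tables, snoRNAs counted in Snhg genes, and the highest or unexpressed list members; others, such as Snora3, Snora35 and Snord118, were chosen after their values were seen. Python 3.11.15, pandas 2.3.3, numpy 2.4.6, scipy 1.17.1 and matplotlib 3.10.9 were used. Reads carry no molecular identifiers, so intervals and floors cover counting error only.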

Additional observations from a re-analysis of the deposited data

How the results depend on the processing

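No paired analysis was possible because both animals form 1 group. With the FASTQ-derived table, expressed box C/D genes fell from 4 to 0, box H/ACA genes from 18 to 0, and members 2-fold apart between the animals from 2 to 0; the median log2 ratio of snoRNA over Snhg host turned from 4.71 to -9.25, which the pseudocount sets because the snoRNAs are listed at 0 there, and the shares of TPM became 4.3e-05% for snoRNAs and 0.00788% for hosts. A threshold of 5 TPM left 9 box H/ACA genes and 1 host, and a minimum of 10 counts 5 box H/ACA genes. Between the animals, a pseudocount of 1 or no centring left 1 call. Demanding also that the credibility intervals of the animals be apart left 0 calls. No filter gave 17 of 52, where all genes gave 7.50%. The guest ratio was -7.39 with no filter on counts, where most snoRNAs have an effective length of 0 by construction, and 0.63 over all hosts. As shares of expected counts, snoRNAs held 0.00606% and hosts 0.00252%, and without the mitochondrial genome 0.150% and 0.00832% of TPM. With 1 animal left out, expressed box H/ACA genes numbered 21 to 23, box C/D genes 4 in each case, hosts 10 to 11, 27 members were apart between the tables in both cases, the guest ratio was 4.17 to 5.25, and the shares were 0.0912% to 0.0941% and 0.00506% to 0.00522%. Of 48 alternatives for these 8 results, 29 stayed within the spread or 1.5 times, 17 moved and 2 reversed. Where no cause is given, it was not tested. Chosen after seeing the data, counts per base of full length turned Snord17 over its host to -0.092 and Snord15b to -1.20. Of 18 expressed box H/ACA genes, 13 had under 10 counts in an animal.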
